A study of Mus musculus with 10 samples.

Results

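The genes followed were 10 in number: 2 secreted CCN proteins, Ccn1 (Cyr61) and Ccn2 (Ctgf), and 8 genes of the Hippo-YAP pathway, Yap1, Wwtr1, Tead1, Tead2, Tead4, Amotl2, Lats2 and Ankrd1. These are 10 of the 51670 mouse gene models in the table, found by symbol, with the older names Cyr61 and Ctgf accepted. They had been chosen with the values of these same libraries in view, so their own differences between the groups are described here without a test.

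RNA was sequenced from haematopoietic stem cells, sorted from bone marrow of wild-type C57BL/6J mice by the gate CD48-CD150+LSK. Of the 10 libraries, 5 came from animals given Tunicamycin at 2 mg/kg by intraperitoneal injection and 5 from animals given DMSO by the same route. Tunicamycin blocks N-linked glycosylation and so causes stress of the endoplasmic reticulum, and DMSO is its solvent. The labels give no age, no sex, no time between injection and sorting, no number of cells, and not whether each library was its own animal, so the p-values below measure only the spread between these libraries.

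The Hippo pathway is a kinase cascade that keeps the coactivators YAP and TAZ out of the nucleus. The kinases MST1 and MST2 act on the LATS kinases, which phosphorylate YAP and TAZ. Unphosphorylated YAP and TAZ enter the nucleus, bind TEAD transcription factors and switch on targets that include Ccn1, Ccn2, Ankrd1, Amotl2 and Lats2. The products of Amotl2 and Lats2 restrain YAP in turn, so both genes are read as part of a feedback loop. YAP activity depends mostly on where the protein is and how it is phosphorylated, which RNA levels do not report. In marrow, Ccn1 and Ccn2 are best known from stromal and endothelial cells.

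The TEAD factors recognise a core of GGAATG, which reads CATTCC on the other strand. It was searched on both strands in the 250 bases before each gene's RefSeq start, on build GRCm38.p6, in which 7 of the 10 genes had a window. Ccn2, Tead1 and Tead4 had none, so nothing can be said of their promoters. The stretches that hold the core are shown for the genes that had it. Each is given 5′ to 3′ on the gene's own strand, with the core in capitals.
Ccn1, chr3:145650071-145650100, minus strand: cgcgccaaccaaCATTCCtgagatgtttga
Amotl2, chr9:102717727-102717756, plus strand: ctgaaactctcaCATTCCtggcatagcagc
Ankrd1, chr19:36120037-36120066, minus strand: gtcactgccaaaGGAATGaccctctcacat
Ankrd1, chr19:36119950-36119979, minus strand: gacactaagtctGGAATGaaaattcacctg
Yap1, chr9:8004720-8004749, minus strand: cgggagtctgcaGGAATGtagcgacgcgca
Wwtr1, chr3:57576029-57576058, minus strand: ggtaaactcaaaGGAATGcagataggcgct

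The core was present in 5 of the 7 genes with a window (Ccn1, Amotl2, Ankrd1, Yap1 and Wwtr1), and Ankrd1 held it at 2 places. These letters were not in the windows of Tead2 and Lats2. Of 32851 promoter windows of the same length, 12.6% held the core. In Ccn1 the core lay 103 to 98 bases before the start, in Amotl2 65 to 60 bases before it, and the nearer of the Ankrd1 matches 123 to 118 bases before it. A match is a stretch of letters and does not show that a TEAD protein bound there. Other motifs were searched on both strands, and none had a match in a window of the 7 genes: the cyclic AMP response element TGACGTCA (1.55% of all windows), the AP-1 site TGANTCA (6.75%), the CArG box bound by serum response factor (1.47%) and the ER stress response element (0.113%). The window of Ccn1, the most abundant of the 10 genes after Tunicamycin, is printed in full, with its TEAD core in capitals.
Ccn1, chr3:145649986-145650235, minus strand: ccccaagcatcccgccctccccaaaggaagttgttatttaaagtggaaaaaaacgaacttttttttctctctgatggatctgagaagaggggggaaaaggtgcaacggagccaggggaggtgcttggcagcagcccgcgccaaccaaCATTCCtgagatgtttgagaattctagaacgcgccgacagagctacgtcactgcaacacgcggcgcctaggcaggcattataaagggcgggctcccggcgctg

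The library labelled Tunicamycin replicate 1 holds whole numbers only, in FPKM (fragments scaled to gene length and library depth). No source says whether its decimals were rounded or cut off, so a 0 there can stand for a value of up to 0.5 or up to 1 FPKM. It lists 14435 gene models at 1 or more, where the other Tunicamycin libraries held 15376 to 18378 at 1 FPKM or more and 19863 to 27364 at 0.5 FPKM or more. For genes under about 1 FPKM, values without that library are given beside the others. Each library held 13464 to 18378 gene models at 1 FPKM or more, and the steps between low values put the depth of the other 9 libraries at about 18570000 to 60270000 reads. DMSO replicate 3 was the shallowest. DMSO replicates 3 and 5 had Xist, the RNA that silences an X chromosome in females, at 0.15 and 0.0654 FPKM, against 28.2 to 35.6 FPKM in the other 8 libraries. Stem cell markers, listed as a check of the sort, were present in both groups, among them Kit at 107 ± 22.9 FPKM after Tunicamycin and 101 ± 17.7 FPKM after DMSO, and Procr at 22.4 ± 7.41 FPKM after Tunicamycin and 17.2 ± 4.63 FPKM after DMSO (SD, n = 5 each). Markers of stromal, endothelial, macrophage and megakaryocyte cells were present as well, and their values are given further below.

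Ccn1 and Ccn2 were far higher in every Tunicamycin library than in any DMSO library. Ccn1 (Ensembl ENSMUSG00000028195, mm10 chr3:145646976-145649981, minus strand) encodes a secreted matrix protein that signals through integrins and is a standard readout of YAP. Ccn1 stood at 45, 159, 50.9, 35.2 and 109 FPKM in Tunicamycin replicates 1 to 5, against 2.78, 3.37, 0.213, 3.34 and 3.07 FPKM in DMSO replicates 1 to 5. The lowest Tunicamycin library, replicate 4, lay far above the highest DMSO library, and DMSO replicate 3 lay far under the other 4 of its group. The mean was 79.8 ± 52.7 FPKM after Tunicamycin and 2.55 ± 1.33 FPKM after DMSO (SD, n = 5 each), a 31.2-fold difference of the means. On the scale of log2(FPKM + 1), which understates the change of low genes, the difference of Ccn1 was 4.41.

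Ccn2 (ENSMUSG00000019997, mm10 chr10:24595442-24598683, plus strand) encodes the connective tissue growth factor, a close relative of CCN1. Ccn2 stood at 35, 129, 65.3, 35.8 and 65.7 FPKM in Tunicamycin replicates 1 to 5, against 0.883, 2.45, 0.0862, 3.08 and 1.08 FPKM in DMSO replicates 1 to 5. Tunicamycin replicate 2 was the highest library for both genes and DMSO replicate 3 the lowest for both. The mean was 66.2 ± 38.4 FPKM after Tunicamycin and 1.52 ± 1.22 FPKM after DMSO (SD, n = 5 each), a 43.7-fold difference of the means and 4.72 on the log2(FPKM + 1) scale. Among the 14727 genes tested, the differences of Ccn2 and Ccn1 ranked 4 and 5 from the top. Both genes were chosen on this same contrast, so the rank is a description and nothing is read from it. Fewer cells of a type and less RNA per cell cannot be told apart in such bulk libraries, here or in any value below.

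The low Ccn1 and Ccn2 values of DMSO replicate 3 rested on few fragments. With exon lengths of GENCODE M21, which need not be those of the authors, they came to about 7.97 reads for Ccn1 and 4.58 for Ccn2, while the other 4 DMSO libraries held about 170.38 to 406.71 reads for Ccn1. Without DMSO replicate 3 the log2 difference was 4.05 for Ccn1 and 4.45 for Ccn2. Without Tunicamycin replicate 1 it was 4.55 for Ccn1 and 4.90 for Ccn2. Over all settings tried that add 1 FPKM, it stayed between 4.05 and 4.83 for Ccn1 and between 4.33 and 5.27 for Ccn2.

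**Figure D1:**
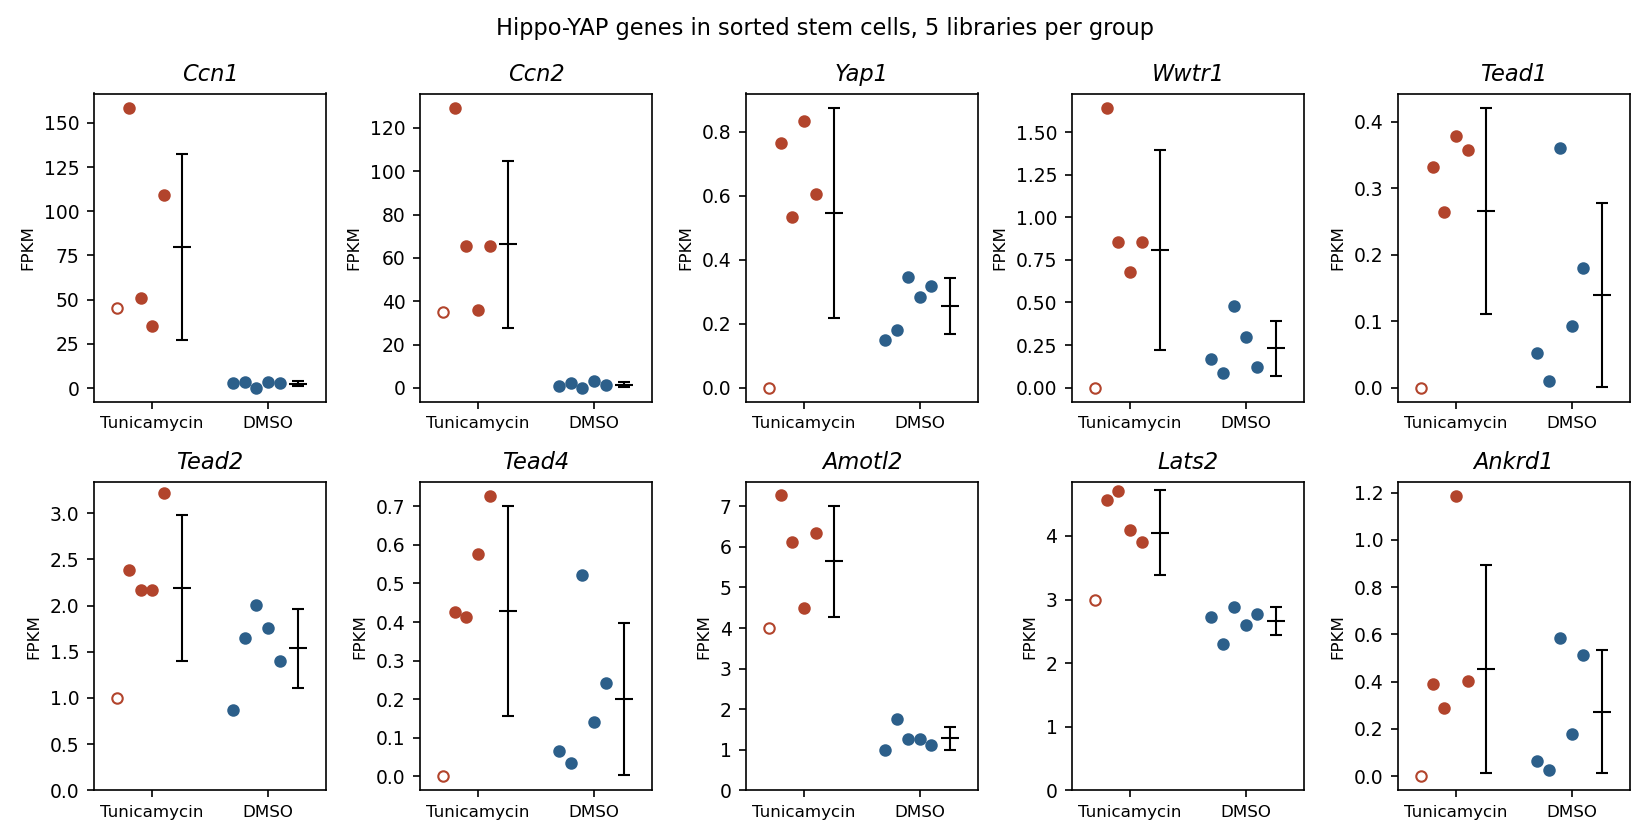
Level of each of the 10 genes in FPKM (linear scale from 0, each gene on its own axis) in the 5 Tunicamycin libraries (red, left) and the 5 DMSO libraries (blue, right), replicates 1 to 5 from left to right, with the mean and SD as the black mark and bar. The open point is Tunicamycin replicate 1, which holds whole numbers only; the groups are apart in Ccn1, Ccn2, Amotl2 and Lats2, and in Yap1, Wwtr1 and Tead2 the open point alone lies among or below the DMSO points.

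Yap1 and Wwtr1, the genes of the coactivators, were under 1 FPKM in nearly all libraries and higher in 4 of the 5 Tunicamycin libraries than in any DMSO library. Yap1 (ENSMUSG00000053110, mm10 chr9:7931999-8004596, minus strand) encodes YAP. Yap1 was listed at 0 in Tunicamycin replicate 1 and stood at 0.763, 0.534, 0.833 and 0.604 FPKM in replicates 2 to 5, against 0.149, 0.181, 0.345, 0.282 and 0.318 FPKM in DMSO replicates 1 to 5. The 4 Tunicamycin libraries with decimals all lay above the 5 DMSO libraries. Over those 4, Yap1 averaged 0.683 ± 0.138 FPKM, against 0.255 ± 0.086 FPKM after DMSO (SD, n = 4 and n = 5), a 2.68-fold difference of the means. The log2(FPKM + 1) difference of Yap1 was 0.42 without Tunicamycin replicate 1 and 0.27 with it.

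Wwtr1 (ENSMUSG00000027803, mm10 chr3:57455649-57575910, minus strand) encodes TAZ, the second coactivator, which shares the TEAD partners of YAP. Wwtr1 was listed at 0 in Tunicamycin replicate 1 and stood at 1.64, 0.854, 0.678 and 0.856 FPKM in replicates 2 to 5, against 0.168, 0.0881, 0.480, 0.299 and 0.121 FPKM in DMSO replicates 1 to 5. Here too the 4 libraries with decimals lay above every DMSO library, and Tunicamycin replicate 2 was the highest. Over those 4, Wwtr1 averaged 1.01 ± 0.432 FPKM, against 0.231 ± 0.161 FPKM after DMSO (SD, n = 4 and n = 5), a 4.36-fold difference of the means. The log2(FPKM + 1) difference of Wwtr1 was 0.69 without Tunicamycin replicate 1 and 0.50 with it. The level of Wwtr1 was 0.815 to 2.15 times that of Yap1 in the 4 Tunicamycin libraries and 0.379 to 1.39 times in the DMSO libraries, so neither coactivator gene was the higher one throughout.

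Of the TEAD factors, which hold the DNA, Tead2 was the most abundant and the others were near the limit of what these libraries show. Tead2 (ENSMUSG00000030796, mm10 chr7:45215753-45233644, plus strand) stood at 1, 2.39, 2.17, 2.17 and 3.22 FPKM in Tunicamycin replicates 1 to 5, against 0.869, 1.65, 2.01, 1.75 and 1.40 FPKM in DMSO replicates 1 to 5. The Tunicamycin libraries other than replicate 1 lay above every DMSO library, the lowest by a small margin. The mean was 2.19 ± 0.794 FPKM after Tunicamycin and 1.54 ± 0.431 FPKM after DMSO (SD, n = 5 each), a log2(FPKM + 1) difference of 0.31. Exons of Tead2 overlap those of Cd37, a gene of blood cells on the opposite strand at 44.2 FPKM after Tunicamycin and 34.2 FPKM after DMSO. Whether fragments were counted by strand is not given in the sources used here, so reads of Cd37 within the Tead2 values cannot be told apart.

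Tead1 (ENSMUSG00000055320, mm10 chr7:112679318-112906807, plus strand) was listed at 0 in Tunicamycin replicate 1 and stood at 0.332, 0.264, 0.379 and 0.357 FPKM in replicates 2 to 5, against 0.0527, 0.0104, 0.361, 0.093 and 0.181 FPKM in DMSO replicates 1 to 5. The groups overlapped, since DMSO replicate 3 reached the level of the Tunicamycin libraries. Tead4 (ENSMUSG00000030353, mm10 chr6:128224288-128300823, minus strand) was likewise listed at 0 in Tunicamycin replicate 1 and stood at 0.426, 0.414, 0.577 and 0.727 FPKM in replicates 2 to 5, against 0.064, 0.0336, 0.523, 0.140 and 0.242 FPKM in DMSO replicates 1 to 5. DMSO replicate 3 again lay among the Tunicamycin libraries and the other 4 DMSO libraries under them. The log2(FPKM + 1) difference was 0.15 for Tead1 and 0.24 for Tead4. Without Tunicamycin replicate 1 it was 0.23 for Tead1 and 0.37 for Tead4. With every library rounded to whole numbers Tead1 was 0 in all of them, and with decimals cut off in every library so were Tead1, Tead4 and Yap1.

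Amotl2 and Lats2, the feedback genes, were higher in every Tunicamycin library than in any DMSO library. Amotl2 (ENSMUSG00000032531, mm10 chr9:102716672-102733418, plus strand) encodes an angiomotin-like scaffold that binds YAP and holds it in the cytoplasm. Amotl2 stood at 4, 7.29, 6.13, 4.48 and 6.33 FPKM in Tunicamycin replicates 1 to 5, against 0.993, 1.75, 1.27, 1.27 and 1.104 FPKM in DMSO replicates 1 to 5. The gap between the groups was wider than the whole range of the DMSO libraries. The mean of Amotl2 was 5.65 ± 1.37 FPKM after Tunicamycin and 1.28 ± 0.288 FPKM after DMSO (SD, n = 5 each), a 4.42-fold difference of the means and 1.53 on the log2(FPKM + 1) scale.

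Lats2 (ENSMUSG00000021959, mm10 chr14:57689662-57758388, minus strand) encodes a kinase that phosphorylates YAP and TAZ. Lats2 stood at 3, 4.56, 4.71, 4.09 and 3.91 FPKM in Tunicamycin replicates 1 to 5, against 2.73, 2.30, 2.88, 2.61 and 2.78 FPKM in DMSO replicates 1 to 5. The groups were apart in the values as listed, with the whole-number library closest to the DMSO libraries. If that 3 was rounded, it stands for 2.5 to 3.5 FPKM, a range that reaches into the DMSO libraries. The mean of Lats2 was 4.05 ± 0.674 FPKM after Tunicamycin and 2.66 ± 0.224 FPKM after DMSO (SD, n = 5 each), a 1.52-fold difference of the means and 0.46 on the log2(FPKM + 1) scale. Equal medians lowered the Lats2 difference to 0.30, and scaling each library to a common FPKM sum put it at 0.63.

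Ankrd1 (ENSMUSG00000024803, mm10 chr19:36111961-36120099, minus strand) encodes an ankyrin repeat protein best known from heart muscle and is a classic YAP target. Unlike in Ccn1 and Ccn2, its groups overlapped. Ankrd1 was listed at 0 in Tunicamycin replicate 1 and stood at 0.389, 0.288, 1.19 and 0.403 FPKM in replicates 2 to 5, against 0.0649, 0.0256, 0.584, 0.180 and 0.513 FPKM in DMSO replicates 1 to 5. Tunicamycin replicate 4 stood alone at the top, and DMSO replicates 3 and 5 lay above the remaining Tunicamycin libraries. The log2(FPKM + 1) difference of Ankrd1 was 0.17, or 0.29 without Tunicamycin replicate 1. It was -0.20 with every library rounded to whole numbers and 0.20 with decimals cut off in every library.

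Of the 10 genes, 4 (Ccn1, Ccn2, Amotl2 and Lats2) had every Tunicamycin library above every DMSO library as listed, which held for 19.2% of the genes tested. Lats2 is among them only if the decimals of Tunicamycin replicate 1 do not put it lower. Without Tunicamycin replicate 1 there were 7 such genes, with Yap1, Wwtr1 and Tead2 added, against 35.1% of the genes tested and 16.6% of the 51539 gene models above 0 in any library. A filter of at least 1 FPKM in at least 5 of the 10 libraries was passed by 14727 genes, 5 of the 10 among them (Ccn1, Ccn2, Tead2, Amotl2 and Lats2). Limma called 29.9% of the 14727 higher and 15.4% lower. No call is given for the 10 genes, since they were chosen on this same contrast, and nothing is read from the shares above. The median log2 difference of all tested genes was 0.18. It moved to -0.01 with quantile normalization, to 0.01 with equal medians and to 0.28 with a common FPKM sum, and the share of higher among all calls moved with it, at 47.6%, 47.9% and 76.7%, against 66.1% in the values as deposited.

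**Figure D2:**
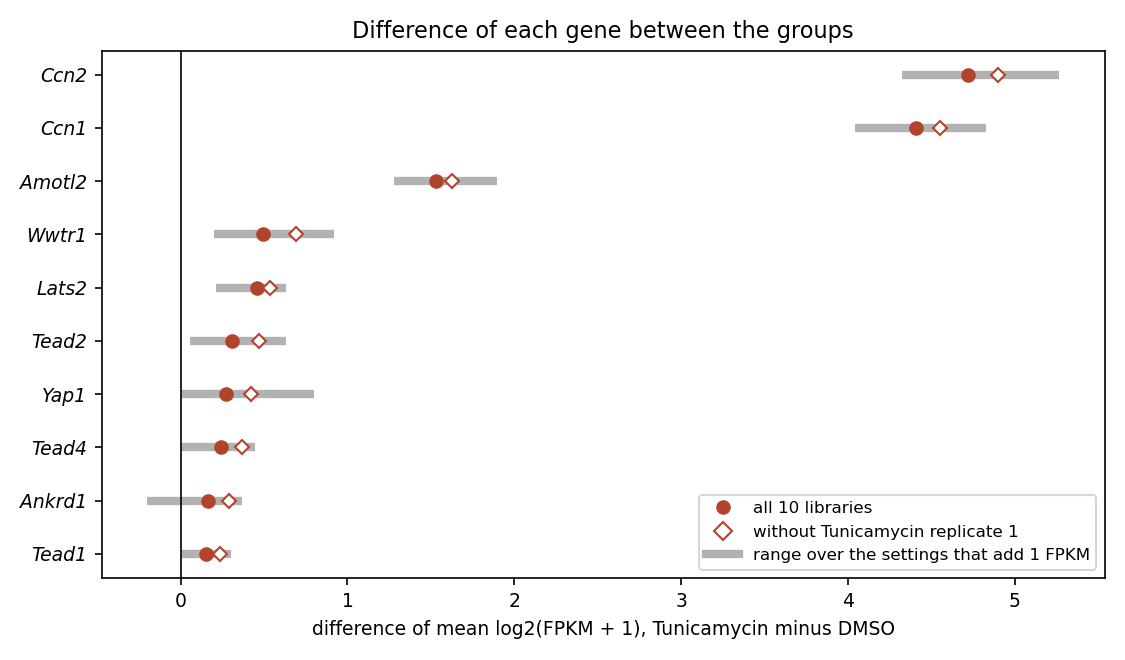
Difference of mean log2(FPKM + 1), Tunicamycin minus DMSO, for each of the 10 genes, from all 10 libraries (filled circles) and without the whole-number library Tunicamycin replicate 1 (open diamonds), with the range over all settings that add 1 FPKM as grey bars. Ccn2 and Ccn1 lie above 4, Amotl2 at 1.53, and the other 7 genes at 0.50 or less with all libraries; the bars of Yap1, Tead4 and Tead1 reach 0 and that of Ankrd1 -0.20.

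The order of the 10 genes differed between the groups. Over the 4 Tunicamycin libraries with decimals, Ccn1 and Ccn2 came first, their ranges overlapping, and after a gap came Amotl2 and Lats2, which overlapped as well. Tead2 followed, apart from its neighbours on both sides. Wwtr1, Yap1, Ankrd1 and Tead4 came next, each overlapping the one after it, and Tead1 was last, below the range of Tead4. In the DMSO libraries Lats2 was the highest by its mean, followed by Ccn1, Tead2, Ccn2 and Amotl2, and no 2 neighbours in that row were apart. The other 5 genes, Ankrd1, Yap1, Wwtr1, Tead4 and Tead1, lay below Amotl2 in DMSO libraries without overlapping it, and overlapped each other.

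Within a group, Ccn1 and Ccn2 moved together from library to library. The ratio of Ccn1 to Ccn2 lay between 0.779 and 1.66 in the Tunicamycin libraries and between 1.08 and 3.15 in the DMSO libraries, while the highest Ccn1 value was 4.51 times the lowest after Tunicamycin and 15.8 times after DMSO. With log2(FPKM + 1) centred within each group, the correlation of Ccn1 with Ccn2 over the 10 libraries was 0.868, and 0.804 without DMSO replicate 3. Amotl2 varied with Ccn2 (0.737, or 0.690 without Tunicamycin replicate 1), and its highest value was 1.82 times its lowest after Tunicamycin. The correlation of Yap1 with Ccn1 was 0.135 over the 10 libraries, -0.29 without Tunicamycin replicate 1 and 0.319 without DMSO replicate 3. In the same order, the values of Yap1 with Ccn2 were 0.255, -0.26 and 0.415. Those of Wwtr1 were 0.305, 0.155 and 0.680 with Ccn1, and 0.450, 0.263 and 0.760 with Ccn2. That of Ankrd1 with Ccn2 was negative, at -0.33 over the 10 libraries, -0.69 without Tunicamycin replicate 1 and -0.15 without DMSO replicate 3. Tead1 and Tead4 varied together (0.971, or 0.937 without it), whereas Yap1 and Wwtr1 did so at 0.832 with the whole-number library and at 0.353 without it. These correlations share the same libraries, their depths and the lost decimals of 1 library, and are descriptions.

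The tested genes whose pattern over the 10 libraries was most like the mean of Ccn1 and Ccn2, centred in the same way, were Galns (0.975), Cldn5 (0.964), Atp5g2 (0.955), Nudt2 (0.942), Ubl5 (0.942), Rhoj (0.930), Plvap (0.927) and Gpr182 (0.924), out of 14722 genes ranked. Cldn5, Rhoj, Plvap and Gpr182 are known from endothelial cells, and Cldn5, a claudin of their tight junctions, averaged 40.1 ± 24.2 FPKM after Tunicamycin and 7.44 ± 3.65 FPKM after DMSO (SD, n = 5 each). Not all endothelial markers were alike: Vwf stood at 0.400 and Tie1 at 0.200. The other 4 genes had lower means after Tunicamycin, with log2 differences of -0.28 for Galns, -0.56 for Atp5g2, -0.13 for Nudt2 and -0.37 for Ubl5. Galns, a lysosomal sulfatase, averaged 10.8 ± 1.38 FPKM after Tunicamycin and 13.4 ± 1.69 FPKM after DMSO. The list depends on DMSO replicate 3. Without that library none of the 8 genes stayed in the leading 8, although Cldn5 was still at 0.955 and Gpr182 at 0.959, and 5 of the 8 stayed without Tunicamycin replicate 1.

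Genes listed as markers of other marrow cells were also higher by their sums after Tunicamycin. Such genes need not be confined to the cells they mark. Whether the sorted stem cells held part of their RNA was not tested. The 14 endothelial markers summed to 395 to 769 FPKM (median 534) in Tunicamycin libraries and 233 to 338 FPKM (median 254) in DMSO libraries, a 1.97-fold difference of the mean sums, and 13 of the 14 were called higher by limma, where 29.9% of all genes tested were. The 14 stromal markers summed to 250.3 to 660.3 FPKM (median 294) in Tunicamycin libraries and 40.5 to 213 FPKM (median 149) in DMSO libraries, 2.86-fold, with 7 of the 12 tested called higher. The 14 macrophage markers summed to 2038 to 5039 FPKM (median 3435) in Tunicamycin libraries and 737 to 1366 FPKM (median 1034) in DMSO libraries, 3.21-fold, with 13 called higher. Megakaryocyte markers summed to 1120 to 1569 FPKM (median 1240) in Tunicamycin libraries and 268 to 889 FPKM (median 589) in DMSO libraries, 2.18-fold, with 8 of the 11 tested called higher.

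None of these markers was at 0 in every library. The sums of all 4 lists lay higher in every Tunicamycin library than in any DMSO library. Each sum differed by less than the 31.2-fold of Ccn1 or the 43.7-fold of Ccn2, but a sum follows its most abundant members. In the endothelial list these were Eng, at 156 FPKM after Tunicamycin and 85.8 FPKM after DMSO, and Esam, at 130.4 and 68.7 FPKM. The log2(FPKM + 1) differences of the 14 endothelial markers ran from 0.398 for Egfl7 to 2.21 for Cldn5. Cldn5 averaged 40.1 FPKM after Tunicamycin and 7.44 FPKM after DMSO, and Egfl7 51.5 and 37.8 FPKM. The 10 stem cell markers summed to 403 to 586 FPKM after Tunicamycin and 289 to 430 FPKM after DMSO, 1.41-fold, with 7 called higher and none lower, against 29.9% and 15.4% of all genes tested. Tunicamycin replicate 2 had both the highest endothelial sum and the highest Ccn1 and Ccn2, and DMSO replicate 3 the lowest endothelial and stromal sums and the lowest Ccn1 and Ccn2. The other lists differed in this: the macrophage sum was highest in Tunicamycin replicate 1, which was low in Ccn1 and Ccn2 within its group, and lowest in DMSO replicate 5. The stromal and megakaryocyte sums were highest in Tunicamycin replicate 5. Among the DMSO libraries, Ccn1 and Ccn2 together followed the same order as the endothelial sum. Among the Tunicamycin libraries the orders differed at the low end. Ccn1 and Ccn2 together were lowest in replicate 4, at 71.0 FPKM, against 80.0 FPKM in replicate 1. The endothelial sum was lowest in replicate 1, at 395 FPKM, against 436 FPKM in replicate 4. The part of these cell types in the Ccn1 and Ccn2 values was not tested.

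**Figure D3:**
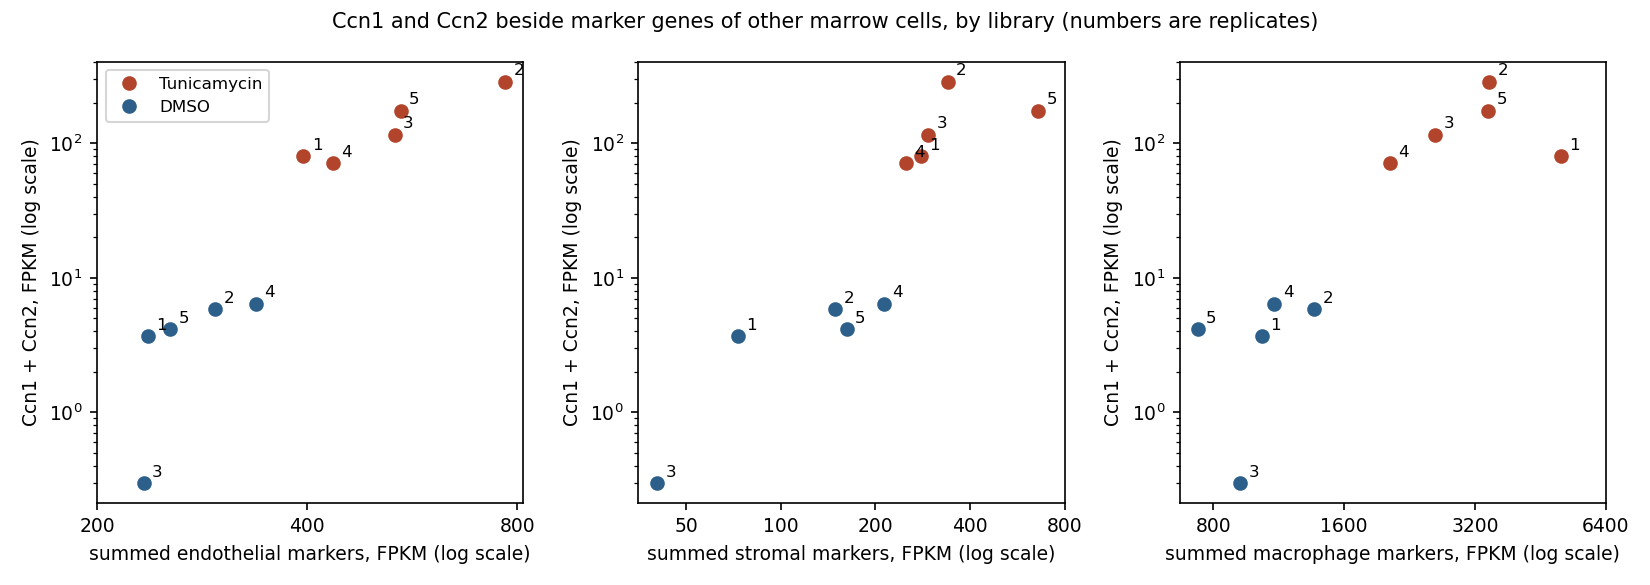
Sum of Ccn1 and Ccn2 (FPKM, log axis) against the summed FPKM (log axis) of the endothelial, stromal and macrophage marker lists in each library, Tunicamycin in red and DMSO in blue, with the replicate number beside each point. The groups are apart on both axes of each panel, and DMSO replicate 3 is the lowest in Ccn1 and Ccn2 and in the endothelial and stromal sums.

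The rest of the pathway was taken from a list of Hippo kinases and upstream regulators, of which 30 of 38 in the table could be tested. By limma with Benjamini-Hochberg adjustment over all genes tested, 13 of the 30 (43.3%) rose and none fell, against 29.9% and 15.4% of all genes tested, with a median log2 difference of 0.32, against 0.18 for all genes. Without Ajuba, which entered the test only through its Tunicamycin values, 12 of 29 (41.4%) rose. Of all 14451 genes tested that reached 1 FPKM in a DMSO library, 28.6% rose. The kinases that rose most were Mink1 and Map4k4, which belong to a family that can phosphorylate LATS. Mink1 stood at 6.38 ± 1.75 FPKM after Tunicamycin and 2.31 ± 0.559 FPKM after DMSO (SD, n = 5 each), a log2 difference of 1.14 ± 0.18 (SE) with limma adjusted p = 0.000283. Map4k4 stood at 6.83 ± 1.90 FPKM after Tunicamycin and 3.50 ± 0.382 FPKM after DMSO, a log2 difference of 0.76 with limma adjusted p = 0.00289.

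Ajuba, a scaffold that holds LATS back, averaged 2.07 FPKM after Tunicamycin and 0.721 FPKM after DMSO, with a log2 difference of 0.81. All 5 DMSO libraries were under 1 FPKM for Ajuba, so it passed the filter only through the Tunicamycin libraries and no p is given. It was also called with no filter on low values. Rassf1, which binds the MST kinases, averaged 15.7 FPKM after Tunicamycin and 8.86 FPKM after DMSO, with a log2 difference of 0.73 and limma adjusted p = 0.00261. The core of the cascade differed less. Stk4, which encodes MST1, averaged 30.5 FPKM after Tunicamycin and 23.2 FPKM after DMSO, with a log2 difference of 0.37 and limma adjusted p = 0.0318, and that call was lost in 10 of the 20 other settings.

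Stk3, which encodes MST2, averaged 14.2 FPKM after Tunicamycin and 12.1 FPKM after DMSO and did not pass (log2 difference 0.21, limma adjusted p = 0.135), though it did without Tunicamycin replicate 1 (0.26) and with a common FPKM sum (0.34). Lats1, the second LATS kinase, averaged 2.69 FPKM after Tunicamycin and 2.22 FPKM after DMSO (0.20, limma adjusted p = 0.288). Nf2, the upstream tumour suppressor merlin, averaged 10.96 FPKM after Tunicamycin and 10.7 FPKM after DMSO (0.03, limma adjusted p = 0.806). The differences of Lats1 and Nf2 turned negative with quantile normalization, that of Nf2 also with equal medians. The count of 13 genes that rose was 8 with equal medians or without a filter on low values, and 8 in the 8 libraries with Xist alone, in each case 8 of the same 13. Over all genes, those called higher went from 4403 of 14727 to 3321 of 14713 with equal medians. They numbered 3375 of 51539 without the filter and 3130 of 14157 with Xist alone.

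Vgll4, whose product competes with YAP for TEAD, was the only gene of the TEAD and VGLL list that could be tested, out of 5 in the table. Vgll4 rose to 52.0 ± 7.63 FPKM after Tunicamycin, against 37.4 ± 6.04 FPKM after DMSO (SD, n = 5 each), with a log2 difference of 0.47 ± 0.14 (SE) and limma adjusted p = 0.0157. It was not called with equal medians or in the libraries with Xist alone. Tead3, the remaining TEAD gene, was under 1 FPKM in every library. Tead3 was listed at 0 in Tunicamycin replicate 1 and lay between 0.442 and 0.662 FPKM in the other 4, against 0.193 to 0.376 FPKM in DMSO libraries.

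Other YAP and TAZ targets, a list without the 10 genes above, had 9 of 17 members tested. Of the 9 tested, 6 (66.7%) rose and none fell by limma, against 29.9% and 15.4% of all genes tested, with a median log2 difference of 0.73. Without Igfbp3, which was under 1 FPKM in every DMSO library, 5 of 8 (62.5%) rose. The share was 28.6% for all genes tested that reached 1 FPKM in a DMSO library. Igfbp3, which binds insulin-like growth factors, stood at 8, 10.6, 4.20, 3.62 and 7.23 FPKM in Tunicamycin replicates 1 to 5, against 0.271, 0.609, 0.665, 0.478 and 0.557 FPKM in DMSO replicates 1 to 5. Its groups were far apart, with a log2 difference of 2.27. Like Ajuba, Igfbp3 passed the filter only through the Tunicamycin libraries, so no p is given, and it was also called with no filter.

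Axl, a receptor tyrosine kinase that macrophages also carry, averaged 69.5 ± 25.2 FPKM after Tunicamycin and 27.9 ± 9.04 FPKM after DMSO (SD, n = 5 each), with a log2 difference of 1.26 and limma adjusted p = 0.0013. Gadd45a, a stress-induced growth arrest gene, averaged 14.8 ± 2.11 FPKM after Tunicamycin and 5.85 ± 1.14 FPKM after DMSO (1.22, limma adjusted p = 2.79e-05). Myof, a membrane repair protein, averaged 4.36 ± 0.813 FPKM after Tunicamycin and 1.93 ± 0.296 FPKM after DMSO (0.86, limma adjusted p = 0.000395). Crim1 and Nuak2 rose as well. Asap1, Dock5 and Ptpn14 did not pass the test, and Asap1 had a lower mean after Tunicamycin, at 21.5 ± 1.79 FPKM, than after DMSO, at 24.4 ± 3.21 FPKM. The other 8 targets were too low to be tested.

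Of the remaining CCN genes, 4 in the table, only Ccn5 could be tested. Ccn5 (Wisp2), which lacks the C-terminal domain of its relatives, stood at 10, 14.3, 6.44, 3.10 and 7.92 FPKM in Tunicamycin replicates 1 to 5, against 0.649, 1.14, 0.874, 1.14 and 0.842 FPKM in DMSO replicates 1 to 5. As for Ccn1 and Ccn2, Tunicamycin replicate 2 was the highest library and the groups did not overlap. The log2 difference of Ccn5 was 2.15 ± 0.28 (SE), with limma adjusted p = 7.4e-05.

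Cells read CCN proteins through integrins, the LRP receptors and syndecan-4, and 7 of the 11 tested genes of that list (63.6%) rose while none fell by limma, against 29.9% and 15.4% of all genes tested, with a median log2 difference of 0.62. Itgb3 and Itga2b form the fibrinogen receptor of platelets and are also in the megakaryocyte marker list. Itgb3 averaged 33.2 ± 3.997 FPKM after Tunicamycin and 10.2 ± 3.29 FPKM after DMSO (SD, n = 5 each), with a log2 difference of 1.65 ± 0.18 (SE) and limma adjusted p = 3.01e-05. Itga2b averaged 166 ± 22.6 FPKM after Tunicamycin and 65.6 ± 16.8 FPKM after DMSO (1.35, limma adjusted p = 6.73e-05). Sdc4, the heparan sulfate proteoglycan syndecan-4, averaged 16.9 ± 7.22 FPKM after Tunicamycin and 5.58 ± 0.527 FPKM after DMSO (1.35, limma adjusted p = 0.000411).

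Of the other integrin chains in the list, Itgb5 rose with a log2 difference of 1.06 (limma adjusted p = 0.0011) and Itgav with 0.78 (limma adjusted p = 0.00168). The endocytic receptor Lrp1 averaged 2.61 FPKM after Tunicamycin and 1.31 FPKM after DMSO (0.62, limma adjusted p = 0.0115). The Wnt coreceptor Lrp6 averaged 3.999 FPKM after Tunicamycin and 2.60 FPKM after DMSO (0.47, limma adjusted p = 0.0132). Lrp1 lost its call with quantile normalization (0.36), with decimals cut off in every library (0.60) and in the libraries with Xist alone (0.57), and Lrp6 lost its call with quantile normalization (0.22) and with no filter. Itga6, Itgb1, Itgb2 and Itga5 did not pass, with log2 differences of 0.53, 0.18, 0.19 and -0.03. Itga6 passed without DMSO replicate 1 (0.77), its highest DMSO library, and with a common FPKM sum (0.67), and Itgb1 passed with quantile normalization (0.19). Itgb1, the beta chain that most of these alpha chains pair with, stood at 66.2 ± 7.80 FPKM after Tunicamycin and 58.1 ± 2.38 FPKM after DMSO (limma adjusted p = 0.168). Itgam was too low to be tested.

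Ccn1 and Ccn2 are also switched on by serum response factor (SRF), with its cofactors of the MRTF family, and as immediate early genes, so both gene classes are given beside them. Of 18 tested SRF and MRTF genes of the cytoskeleton, 13 (72.2%) rose and none fell by limma, against 29.9% and 15.4% of all genes tested, with a median log2 difference of 0.65. The tropomyosin Tpm4 averaged 54.4 ± 13.3 FPKM after Tunicamycin and 18.8 ± 7.52 FPKM after DMSO (SD, n = 5 each), a log2 difference of 1.55 with limma adjusted p = 0.000448. The focal adhesion protein Zyx averaged 110.2 ± 15.5 FPKM after Tunicamycin and 45.1 ± 14.6 FPKM after DMSO (1.32, limma adjusted p = 0.000156). Fhl2, a LIM-domain cofactor, had a log2 difference of 1.44 (limma adjusted p = 0.000685) and the myosin light chain Myl9 of 1.27 (limma adjusted p = 0.0173). Actb, Actg1, Flna, Vcl and Tagln2 did not pass the test, with log2 differences of -0.40, -0.17, -0.09, -0.01 and 0.01. In the 8 libraries with Xist alone, 8 of the same 13 were called, where 3130 of all 14157 genes tested were called higher. Myl9, at 0.65 there, was not called.

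All 18 tested immediate early genes rose by limma, against 29.9% of all genes tested that rose and 15.4% that fell. Their median log2 difference was 1.97, against 0.18 for all genes tested. One of them, Klf4, was under 1 FPKM in every DMSO library and passed the filter only through the Tunicamycin libraries. The other 17 all rose, with a median of 2.04, where 28.6% of all genes tested that reached 1 FPKM in a DMSO library rose. Egr1, a zinc-finger factor, stood at 178, 306, 233, 238 and 363 FPKM in Tunicamycin replicates 1 to 5, against 32.8, 43.3, 23.3, 25.6 and 22.3 FPKM in DMSO replicates 1 to 5. The groups did not overlap, and the log2 difference was 3.12 ± 0.21 (SE) with limma adjusted p = 1e-06. Junb, a subunit of AP-1, averaged 527 ± 111 FPKM after Tunicamycin and 65.0 ± 21.7 FPKM after DMSO (3.04, limma adjusted p = 1.45e-06). Nr4a1, an orphan nuclear receptor, had a log2 difference of 2.48 (limma adjusted p = 0.00136), and the stress-response factor Atf3 had 2.47 (limma adjusted p = 0.000626). The difference of Egr1 was smaller than that of Ccn1 and Ccn2 on the same log2(FPKM + 1) scale. Tunicamycin replicate 1, the highest library in Atf3 at 40 FPKM, was among the lowest in Ccn1 and Ccn2.

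**Figure D4:**
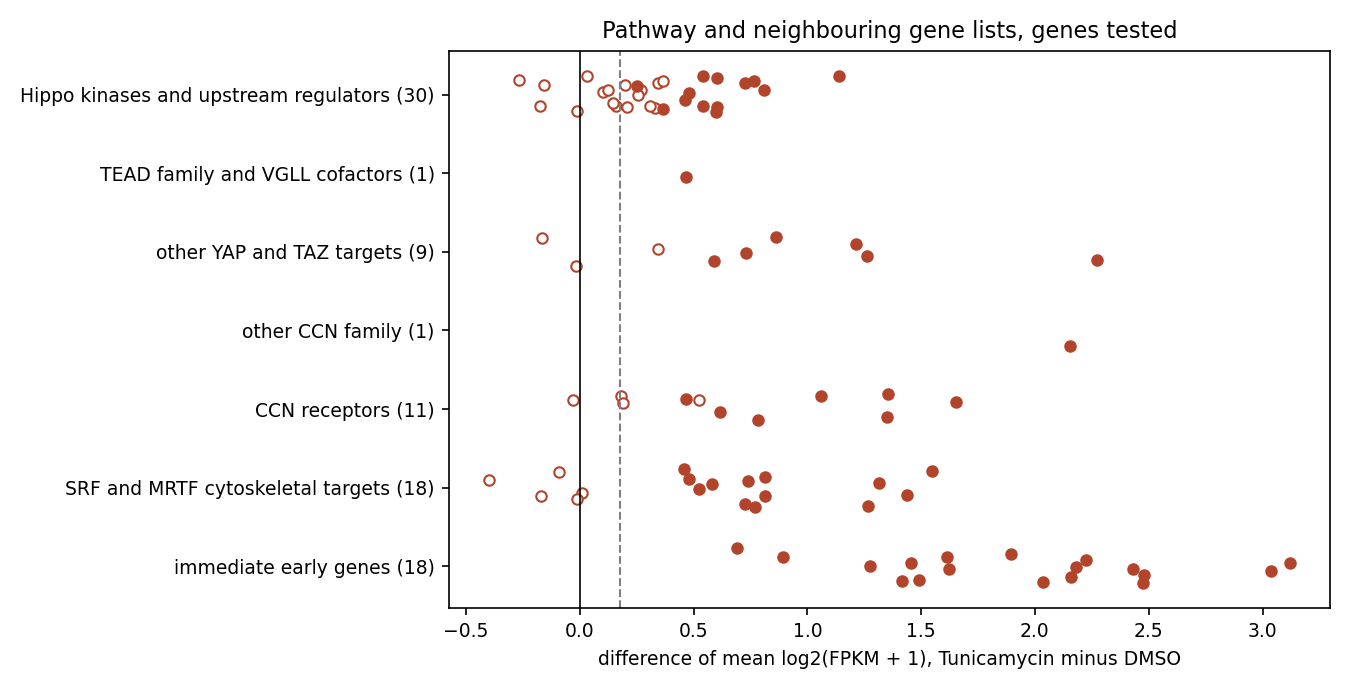
Difference of mean log2(FPKM + 1), Tunicamycin minus DMSO, for each tested gene of 7 lists around the pathway, with the number tested in brackets. Filled points passed the limma test at an adjusted p under 0.05 and open points did not; the dashed line is the median of all tested genes, 0.18, and every immediate early gene lies to the right of it.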

How the data were processed

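The authors deposited a table of FPKM values for 51670 gene models in 10 libraries. The deposited column of Tunicamycin replicate 1 has whole numbers only, so it was recorded as a score, that is, FPKM whose decimals are lost. The submitters' processing notes name DESeq2, HTSeq, Cufflinks 2.1.1 and Bowtie 0.12.9, with mm10 as the build. No source used here gives the other versions, the annotation or what each tool was used for. Symbols matched 51389 of the identifiers.

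Genes that reached 1 FPKM in 5 or more of the 10 libraries entered the test, which was limma 3.58.1 in R 4.3.3 (lmFit, eBayes with a trend) on log2(FPKM + 1), group as the only term, Benjamini-Hochberg adjustment and a threshold of 0.05. The fit was tested on simulated data. The 10 genes and the lists were chosen with earlier results of these data known. Named were all 10 genes, up to 4 called genes with the largest difference per list and direction, the CCN receptors, the core pathway genes, and the 8 genes most like Ccn1 and Ccn2. Genes of marker lists, the list members given without a difference, and the SRF and MRTF genes that did not pass were named after their values were seen. There were 20 other settings. Cutting off all decimals, the list counts without genes under 1 FPKM in every DMSO library, and the correlations and likeness without single libraries were chosen after seeing the data. Promoter windows are from RefSeq (GRCm38.p6) and gene coordinates from GENCODE M21. Depth was read from the steps between low values and counts nothing exactly. Other values were computed in pandas 2.3.3 (Python 3.11.15).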

Additional observations from a re-analysis of the deposited data

Results flagged for a closer look

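In 5 cases a value lay apart from the other 4 libraries of its group by Dixon's criterion at 95%, out of 96 groups of 5 looked at (5.21%), and chance gives about 1 in 20. Ccn1 stood at 0.213 FPKM in DMSO replicate 3, with the other DMSO libraries at 2.78 to 3.37 FPKM. Itga6 stood at 22.9 FPKM in DMSO replicate 1, with the others at 8.34 to 10.2 FPKM. Lats1 stood at 3.12 FPKM in DMSO replicate 1, with the others at 1.89 to 2.19 FPKM. Lrp1 stood at 1.69 FPKM in DMSO replicate 2, with the others at 1.20 to 1.26 FPKM. The summed stromal markers stood at 660.3 FPKM in Tunicamycin replicate 5, with the other Tunicamycin libraries at 250.3 to 340.3 FPKM.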

How the results depend on the processing

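Limits: the table holds no counts, 1 of the 10 libraries has no decimals, and under 1 FPKM the values of that library say little. The settings without the filter and with the replicate block cannot change the differences of the 10 genes. Their values are kept by construction and count among the 182 below. Of 200 values of the 10 genes under the 20 settings, 182 kept their direction and moved by less than the spread between libraries, 13 moved by more, and 5 lost or changed direction: with all libraries rounded the log2 difference was 0 for Tead1 and -0.20 for Ankrd1 (0.20 with decimals cut off), and with decimals cut off it was 0 for Yap1, Tead1 and Tead4. Other changes of direction were small: Lats1 -0.063 and Nf2 -0.16 with quantile normalization, Nf2 -0.16, Itgb1 -0.0228 and Itgb2 -0.0066 with equal medians, Nf2 -0.005 in the libraries with Xist alone, and Itga5 0.0945 with a common FPKM sum, 0.0098 with decimals cut off and between -0.085 and 0.0265 with 1 library left out.

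Genes called lower numbered 2261 of the 14727 tested, but 3767 with quantile normalization and 3606 with equal medians. Hippo regulators called higher numbered 13, but 8 without the filter, 8 with equal medians and 8 with Xist alone, while 2 were called lower with quantile normalization and 2 with equal medians. The calls over all genes fell in the same settings. Genes called higher numbered 4403 of 14727 in the main fit and 3375 of 51539 without the filter. They numbered 3321 of 14713 with equal medians and 3130 of 14157 with Xist alone. The TEAD and VGLL list had 0 called higher with equal medians and 0 with Xist alone. Other YAP and TAZ targets had 2 called lower with quantile normalization and 1 with equal medians, and the SRF and MRTF list 1 called lower with equal medians and 8 higher with Xist alone. The cause was not tested. With 1 library left out, 3294 to 5841 genes were called higher, 1891 to 2510 lower, and 9 to 19 Hippo regulators higher. Ajuba, Igfbp3 and Klf4 could not be tested with a Tunicamycin library left out. With the replicate number as a block, 4553 genes were called higher and 2248 lower. Same-numbered libraries correlated at 0.248, 0.233, 0.085, 0.0741 and 0.0207, and 5 of 10 correlated best with their own number. These values do not decide whether the numbers mark pairs or a shared batch. The labels do not say that they do, so the main fit did not use them.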
